A study of Homo sapiens with 12 samples.

Results

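Cells of the human liver cancer line HepG2, an established line that keeps many hepatocyte functions, were compared after 360 min and after 10 min with 0.001 µM 2,4-D. Both groups received the same dose and were labelled by how long the herbicide had been on the cells. Each group held 3 libraries, labelled as biological replicates, and these 6 were chosen by exposure time from the 12 of the series. The 3 untreated libraries, labelled 0 min, did not enter. The 3 libraries exposed for 30 min were used only for levels given side by side. No untreated cells kept for 360 min were analysed here, so the length of exposure and the hours in culture and handling that passed with it cannot be told apart.

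2,4-D (2,4-dichlorophenoxyacetic acid) mimics the plant hormone auxin and kills broad-leaved weeds. Animal cells lack the plant auxin receptor. A short treatment or a change of medium is known to set off immediate early genes, whose mRNAs appear and decay within the hour and encode transcription factors such as FOS. Other programs described here are the targets of p53, of the heat shock factor HSF1 and of the sterol-regulated factor SREBP2. Targets of the BMP-SMAD pathway are described too, and its ID genes encode inhibitors of differentiation factors.

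Of 16216 genes tested, 4323 (26.7%) passed at an adjusted p under 0.05 (edgeR quasi-likelihood test with Benjamini-Hochberg adjustment, as for all adjusted p-values here). There were 2054 higher (12.7%) and 2269 lower (14%) at 360 min. Most differences were small. The median absolute log2 fold change of the called genes was 0.28, and 64 genes rose and 126 fell by at least 2-fold. In 7059 genes (43.5%) the 3 libraries of one time lay above all 3 of the other. These are the backgrounds against which the counts of each gene group are read. The share called depended on level. Of the 3244 genes lowest in mean level, 3.02% were called higher and 4.53% lower. Of the 3243 highest in mean level, 19.8% were called higher and 19.8% lower. The backgrounds are not matched for level, so a list's share above or below them can reflect the level of its genes.

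**Figure D1:**
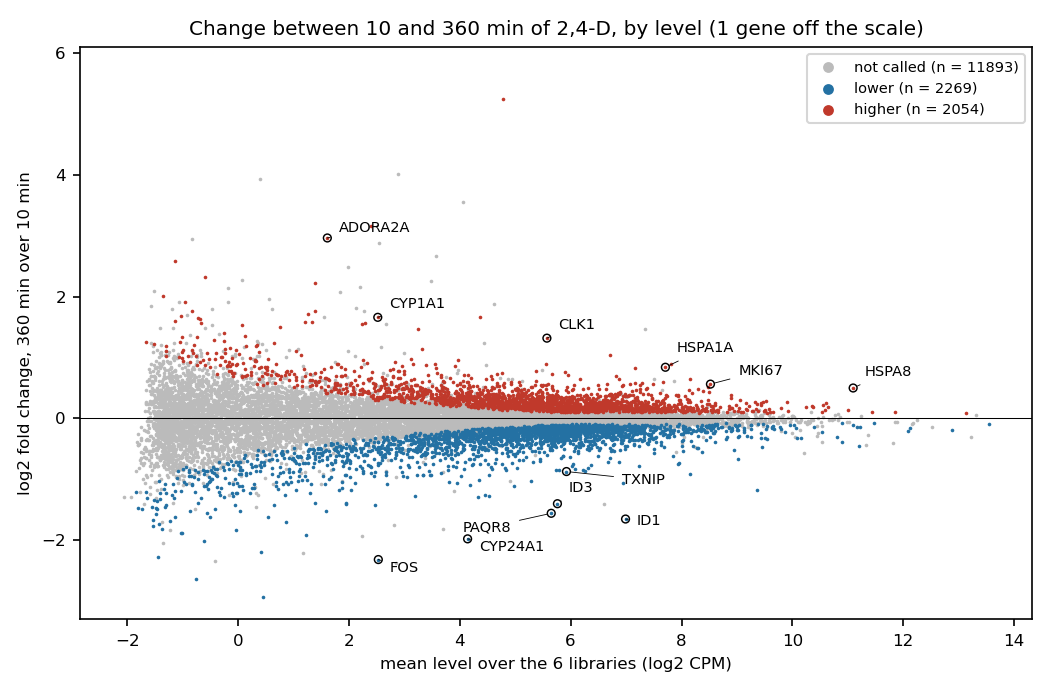
Each point is 1 of the 16216 genes tested, with its mean level over the 6 libraries (log2 CPM, horizontal axis) and its log2 fold change at 360 min over 10 min (vertical axis). Red points are the 2054 genes called higher, blue points the 2269 called lower and grey points the 11893 not called; 12 genes are circled and named. AD000671.1, called higher, lies off the scale, because it had no count in the 3 libraries of 10 min. Below a mean of about 1 on this scale the grey band widens.

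Total counts, in units of 1e6, were 29.77, 30.46 and 31.53 at 10 min and 68.44, 33.44 and 63.95 at 360 min, so depth differed between the times. With all libraries thinned to the smallest total, 4034 genes were called (1884 higher, 2150 lower). A gene with no count could still have been present at up to 3 counts, or 0.0438 to 0.101 CPM (counts per 1e6 counts). Those limits cover counting error only. Genes of the mitochondrial genome took 3.55% to 3.87% of counts at 10 min, 2.61% and 2.52% in 360 min replicates 1 and 2, and 3.99% in 360 min replicate 3, which stood apart from its group. All 10 min libraries lay on the high side of that gap. With the side as a term in the model 1637 genes were called (757 higher, 880 lower). Since all 10 min libraries lay on 1 side, the difference between the times under this mitochondrial term rests on 360 min replicate 3 alone of its group, and a call lost under it does not show a smaller change. Without 360 min replicate 3, 3737 were called. Without 360 min replicate 1, 2841 were called, and without replicate 2, 2905. Between 2 libraries of 360 min the chi-square per degree of freedom was 30.64 for replicates 1 and 3 and 20.4 for replicates 2 and 3. It was 6.879 for replicates 1 and 2, and 6.347 to 9.274 between libraries of 10 min. Mitochondrial genes are included in these values. The calls also followed base composition: of the 3210 genes lowest in GC, 22.9% were called higher and 5.76% lower, against 7.04% and 21.9% of the 3210 highest. With a trend on GC removed, 4210 genes were called, 3275 of them among the 4323. All 10 hepatocyte markers were tested and summed to 31260 to 31610 CPM at 10 min and 31930 to 32360 CPM at 360 min. Markers of fibroblasts, endothelium and neural cells summed to at most 3.56 CPM in any library, with COL1A2, DCN, LUM, KDR, ERG and RBFOX3 at 0, and all 5 keratinocyte markers were at 0. The leukocyte sum (1714 to 1936 CPM at 10 min, 1764 to 1869 CPM at 360 min) was nearly all LYZ, with PTPRC and CD163 at 0.

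The promoters below were chosen because the letters searched for occur in them and their genes were called. CYP1A1 was the lone riser of its list, BAMBI a faller and the HSPA1 pair risers of theirs. Each is the 250 bases before the gene's start in RefSeq on GRCh38.p14, read 5′ to 3′ on the gene's strand. Capitals mark GCGTG, the core of the aryl hydrocarbon receptor site, in CYP1A1 (chr15:74725529-74725778, minus strand), GGCGCC, a BMP-SMAD GC box, in BAMBI (chr10:28677271-28677520, plus strand), and GAANNTTC, part of a heat shock element, in HSPA1A (chr6:31815293-31815542, plus strand) and HSPA1B (chr6:31827488-31827737, plus strand).
CYP1A1: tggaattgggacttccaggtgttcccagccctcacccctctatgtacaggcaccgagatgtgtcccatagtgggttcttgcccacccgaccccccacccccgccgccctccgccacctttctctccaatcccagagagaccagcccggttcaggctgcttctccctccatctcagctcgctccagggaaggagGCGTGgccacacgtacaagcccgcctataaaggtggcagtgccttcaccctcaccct
BAMBI: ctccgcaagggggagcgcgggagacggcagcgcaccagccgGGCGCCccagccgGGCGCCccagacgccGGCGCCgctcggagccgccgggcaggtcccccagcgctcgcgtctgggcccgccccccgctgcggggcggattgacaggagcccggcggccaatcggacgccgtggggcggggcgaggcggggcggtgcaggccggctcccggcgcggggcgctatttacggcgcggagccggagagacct
HSPA1A: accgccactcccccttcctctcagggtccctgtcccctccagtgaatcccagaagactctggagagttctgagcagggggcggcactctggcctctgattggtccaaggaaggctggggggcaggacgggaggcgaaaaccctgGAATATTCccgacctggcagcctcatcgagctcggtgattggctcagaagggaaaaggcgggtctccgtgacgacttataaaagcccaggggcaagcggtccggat
HSPA1B: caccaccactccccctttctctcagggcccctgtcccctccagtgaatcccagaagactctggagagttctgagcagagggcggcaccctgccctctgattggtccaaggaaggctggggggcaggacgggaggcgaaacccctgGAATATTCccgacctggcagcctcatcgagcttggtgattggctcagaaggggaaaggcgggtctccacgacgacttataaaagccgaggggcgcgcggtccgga
Both strands were searched. GCGTG was found at 57 bases before the start of CYP1A1, and GGCGCC at 209, 196 and 181 bases before that of BAMBI. The windows searched for ID1, ID3 and SMAD7, which fell more than BAMBI, held no GGCGCC. Windows of this length held GCGTG in 32.2% of 35116 RefSeq promoters, GGCGCC in 16.4% and GAANNTTC in 5.78%. The HSPA1A and HSPA1B windows matched at 235 of 250 bases (94.0%). A match describes the letters only.

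CYP1A1, the cytochrome P450 that oxidizes many aromatic pollutants and the best known target of the aryl hydrocarbon receptor (AHR), was higher in every library of 360 min. It stood at 3.43, 2.08 and 2.35 CPM in the 10 min libraries and at 8.34, 8.60 and 7.83 CPM in those of 360 min. The groups were far apart, and the libraries of 360 min were close to each other. The log2 fold change was 1.66 ± 0.17 (SE; adjusted p = 0.000365), and 1.58 with the mitochondrial term. The 30 min libraries had averaged 2.31 CPM. Its promoter is shown above.

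CYP1A1 (chr15:74719542-74725610, minus strand, GRCh38) was the single riser among 12 tested genes of the AHR pathway. Of the others, 4 fell, and the list median was -0.04. AHR itself, the receptor, stood at 62.1, 72.1 and 64.6 CPM at 10 min and at 49.2, 51.9 and 52.2 CPM at 360 min, with no overlap (log2 fold change -0.37 ± 0.06, adjusted p = 0.00175). NQO1, a quinone reductase shared with the NRF2 pathway, was lower too (-0.17 ± 0.03 on the log2 scale, adjusted p = 0.0019).

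Among 22 other drug-metabolizing enzymes and their regulators, 5 rose and 2 fell (3 rose without 10 min replicate 2 or 3 or without 360 min replicate 2 or 3). CYP3A7, the fetal liver form of CYP3A, rose most, from 1.19, 1.19 and 0.771 CPM to 3.35, 2.95 and 3.13 CPM. Its groups did not overlap (log2 fold change 1.59 ± 0.19, adjusted p = 0.000598). Gene models of CYP3A51P overlap it on the same strand, and reads shared between them cannot be assigned from the counts. CYP3A5 rose by 0.44 ± 0.09 (adjusted p = 0.00836) and the sulfotransferase SULT2A1 by 0.45 ± 0.07 (adjusted p = 0.00198). NR1I2, the xenobiotic receptor PXR, went the other way, from 26.3 to 29.2 CPM down to 20.98 to 21.97 CPM (log2 fold change -0.38 ± 0.05, adjusted p = 0.00147).

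**Figure D2:**
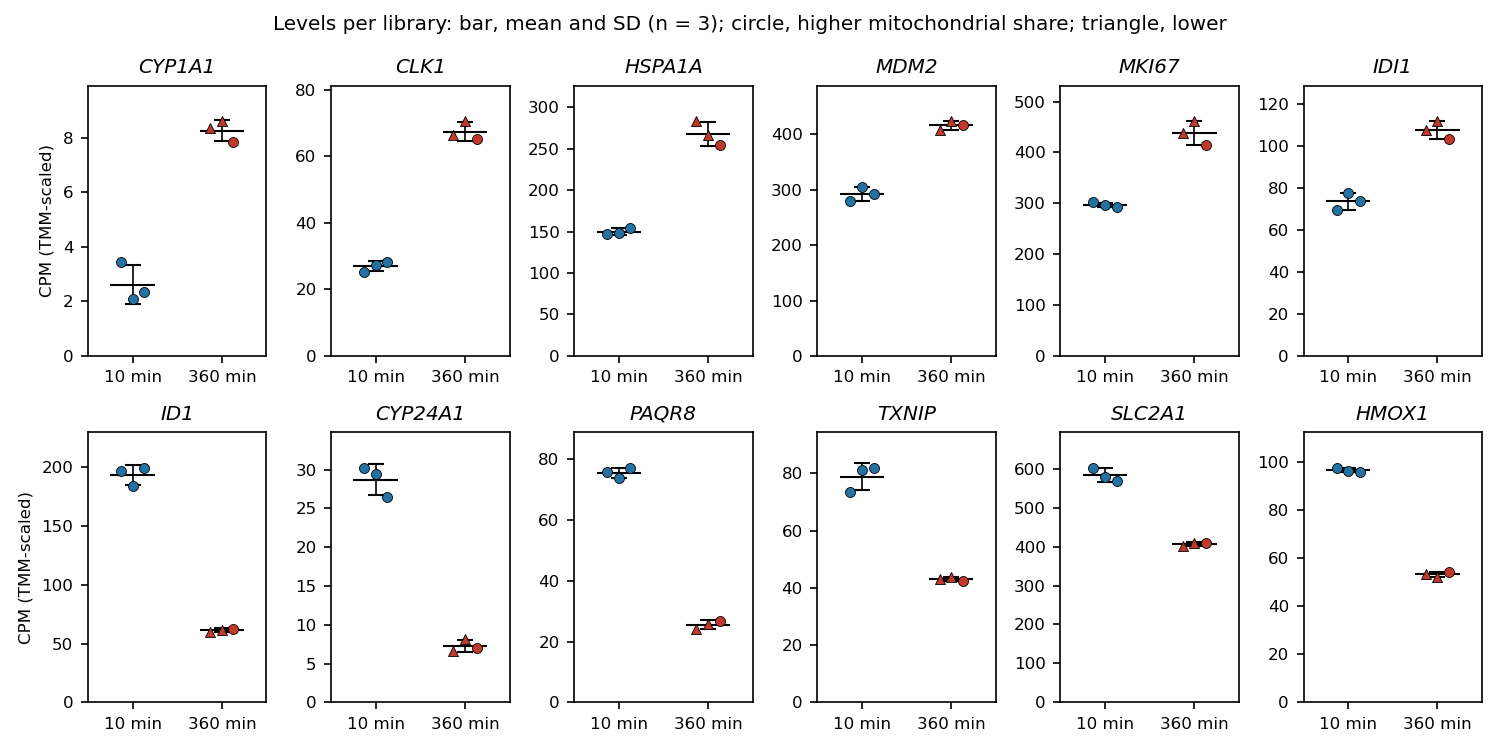
TMM-scaled CPM of 12 genes (vertical axes, each from 0) in the 3 libraries of 10 min (blue) and the 3 of 360 min (red). Bars are the mean and SD (n = 3), and circles and triangles are libraries with the higher and the lower mitochondrial share. The 12 were picked among called genes whose groups did not overlap, so the 2 times are separate in every panel. In these genes 360 min replicate 3, the red circle, lies beside the other libraries of its group.

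The BMP-SMAD feedback group fell furthest of the 41 lists by its median. Of 13 tested members 11 fell and 1 rose, with a median log2 fold change of -0.77 against 0.00012 over all genes. Of these, 8 were lower with the mitochondrial term and 11 with the GC trend removed. ID1, which blocks bHLH factors by pairing with them (chr20:31605283-31606515, plus strand), stood at 197, 183.9 and 199.5 CPM at 10 min and at 59.7, 61.9 and 62.7 CPM at 360 min. No library of one time came near the other. The log2 fold change was -1.66 ± 0.04 (adjusted p = 9.36e-07). ID3 went from 77.7, 78.3 and 81.5 CPM to 28.7, 28.4 and 32.5 CPM (-1.40 ± 0.05, adjusted p = 5.12e-06).

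In the scaling over the 9 exposed libraries ID1 averaged 194.0 CPM at 10 min and 162.7 CPM at 30 min, where every library lay below those of 10 min, and ID3 averaged 79.4 and 83.9 CPM. SMAD7, the inhibitory SMAD that shuts off the receptors, fell from between 23.9 and 25.7 CPM to between 11.4 and 12.2 CPM (log2 fold change -1.09 ± 0.06, adjusted p = 2.14e-05). BAMBI, a receptor that lacks a kinase domain and dampens TGF-beta and BMP signals, stood at 38.4, 35.4 and 37.4 CPM and then at 21.3, 21.0 and 19.5 CPM (-0.85 ± 0.05, adjusted p = 3.36e-05). No library of one time reached the other in either gene. BMP4, a ligand of the pathway, was the riser and is named after its values were seen: 106.9, 101.3 and 110.9 CPM against 128.3, 130.1 and 126.0 CPM (0.27 ± 0.04, adjusted p = 0.00206).

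Immediate early genes were mostly lower at 360 min. Of 25 tested 13 fell and 6 rose, with a median of -0.25, and with the mitochondrial term 8 were lower and 4 higher. Without 10 min replicate 1, 2 were higher. FOS, the AP-1 subunit (chr14:75278774-75282230, plus strand), stood at 12.9, 10.5 and 7.10 CPM at 10 min and at 1.58, 2.92 and 1.78 CPM at 360 min. The log2 fold change was -2.32 ± 0.27 (adjusted p = 0.000616), the largest fall among the genes eligible to be named. DUSP1, the phosphatase that switches off MAP kinases, went from 16.5 to 16.6 CPM down to 8.22 to 9.95 CPM (-0.89 ± 0.08, adjusted p = 0.000255). KLF10, a TGF-beta-induced repressor, fell by 0.74 (SE 0.06, adjusted p = 8.32e-05), and MYC by 0.41 (SE 0.03, adjusted p = 0.000141).

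Among the 6 that rose, IER3, an early response gene tied to cell survival, stood at 100.1, 99.1 and 99.9 CPM and then at 139.8, 139.8 and 156.1 CPM. Its groups were apart (log2 fold change 0.54 ± 0.05, adjusted p = 0.000183). The opposite strand holds IER3-AS1, and reads of the 2 cannot be told apart unless strand was counted, which the sources do not say. BTG2, an antiproliferative early gene that is also a p53 target and is named after its values were seen, rose from 7.44 to 8.82 CPM to 14.1 to 16.6 CPM (0.89 ± 0.10, adjusted p = 0.00043). EGR1, named likewise, was not called, with 14.5, 10.2 and 9.67 CPM against 8.65, 8.69 and 10.4 CPM.

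Several of these genes did not move in 1 direction, as the 30 min libraries show. Scaled over the 9 exposed libraries, IER3 averaged 99.97 ± 0.52 CPM at 10 min, 54.2 ± 3.8 at 30 min and 145.7 ± 9.5 at 360 min (SD, n = 3). DDIT4, which restrains mTORC1, averaged 145.0 ± 12.7, 56.9 ± 3.1 and 214.0 ± 7.4 CPM. Both had a low at 30 min that lay below every library of the other times. DUSP6, the ERK phosphatase, and SLC38A2, an amino acid carrier, had the same order, with 89.8, 61.4 and 108.3 CPM for DUSP6 and 416.7, 331.9 and 541.8 CPM for SLC38A2.

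Other genes passed through a high at 30 min. SGK1, a kinase downstream of PI3K, averaged 48.9 ± 2.5, 76.3 ± 3.9 and 33.7 ± 0.15 CPM. DEPP1, a FOXO target, averaged 6.34 ± 0.24, 8.57 ± 0.68 and 3.47 ± 0.35 CPM. In FOS most of the drop lay before 30 min, at a mean of 2.94 CPM, and in ID1 most of it came after 30 min. The differences that involve 30 min were not tested here.

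**Figure D3:**
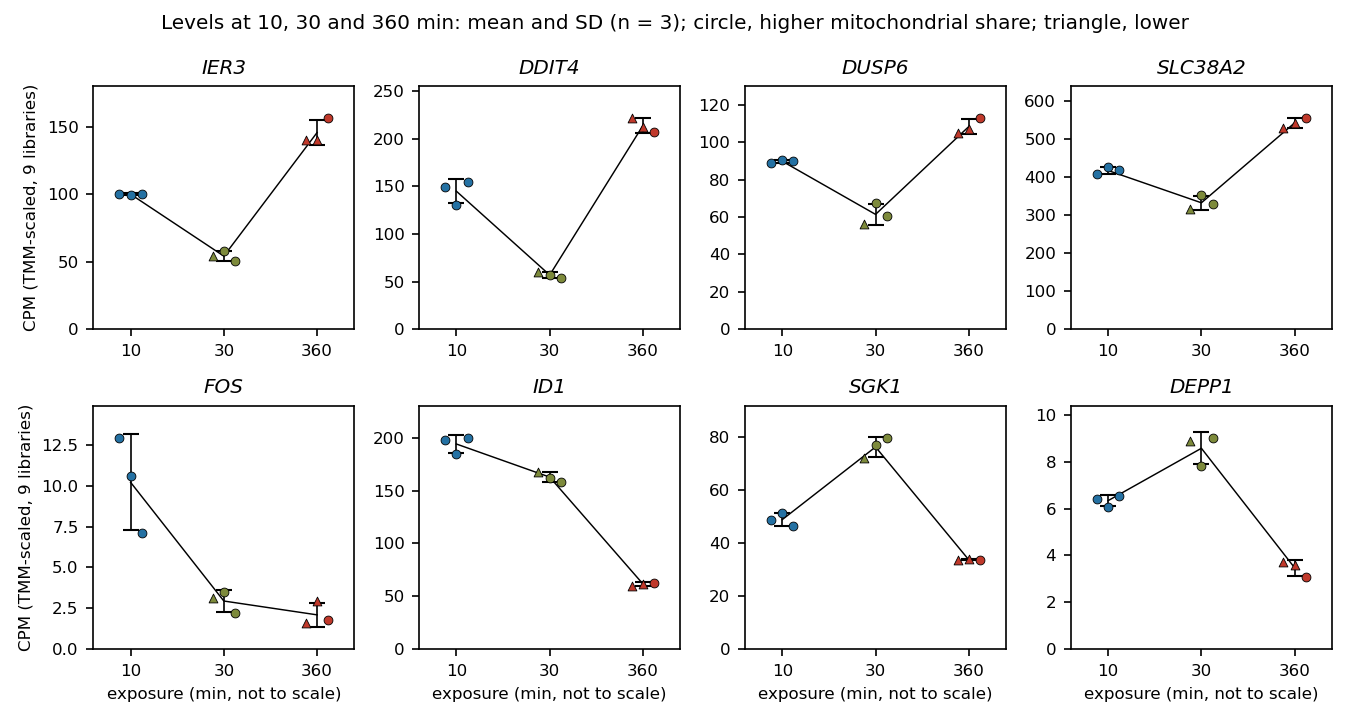
TMM-scaled CPM of 8 genes (vertical axes, each from 0) at 10, 30 and 360 min, with the mean and SD of 3 libraries; the time axis is not to scale. Circles and triangles are libraries with the higher and the lower mitochondrial share. The 30 min points of IER3, DDIT4, DUSP6 and SLC38A2 lie below both other times, and those of SGK1 and DEPP1 above both.

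Between 10 and 360 min, DDIT4 rose by 0.56 ± 0.06 on the log2 scale (adjusted p = 0.000464), SLC38A2 by 0.38 ± 0.03 (adjusted p = 0.000148) and DUSP6 by 0.27 ± 0.04 (adjusted p = 0.00137). SGK1 fell by 0.54 (SE 0.04, adjusted p = 0.000128), and DEPP1 by 0.87 (SE 0.11, adjusted p = 0.00103). CCNG2, an atypical cyclin that FOXO induces, rose from 5.6 to 6.61 CPM to 10.7 to 11.9 CPM (0.89 ± 0.09, adjusted p = 0.000376). In the FOXO and insulin list 3 of 17 rose and 4 fell. Among 23 regulators of mTORC1 5 rose and 2 fell (3 rose without 10 min replicate 1 or 3 or without 360 min replicate 3). CASTOR2, an arginine sensor on that list, went from 17.3 to 20.1 CPM to 12.3 to 12.9 CPM (-0.58 ± 0.07, adjusted p = 0.000826). Among 20 ERK feedback genes 4 rose and 5 fell. Over all genes 26.7% were called in either direction.

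Glucose sensors and hypoxia genes fell together. In the list of TXNIP, the arrestins and glucose sensors 8 of 15 fell and 1 rose, with a median of -0.38, and 7 were lower with the mitochondrial term. TXNIP, which binds thioredoxin and pulls glucose transporters off the membrane (chr1:145992435-145996600, minus strand), stood at 73.4, 81.1 and 81.9 CPM at 10 min and at 43.0, 43.7 and 42.2 CPM at 360 min. Its groups were well apart (-0.88 ± 0.05, adjusted p = 2.02e-05). ARRDC3, an alpha-arrestin, fell by 0.81 (SE 0.06, adjusted p = 0.000107). SLC2A1, the glucose transporter GLUT1, went from 602.4, 579.0 and 568.9 CPM to 401.1, 409.6 and 408.9 CPM (-0.52 ± 0.03, adjusted p = 2.93e-05). MLXIPL, the glucose-sensing factor ChREBP, was the riser and is named after its values were seen (0.15 on the log2 scale, adjusted p = 0.042). With the GC trend removed MLXIPL was at 0.26 (adjusted p = 0.00371). Its call was lost in 5 of the 6 omissions of a library, with the mitochondrial term (adjusted p = 0.143) and with the replicate block (adjusted p = 0.0803).

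Of 29 hypoxia response genes 20 fell and 1, DDIT4, rose, with a median of -0.27. Of the 29, 11 were lower with the mitochondrial term and 21 with the GC trend removed. EPAS1, which encodes HIF-2 alpha, went from 353.4 to 373.0 CPM down to 254.7 to 263.7 CPM (-0.49 ± 0.03, adjusted p = 5.49e-05). ANGPTL4, an inhibitor of lipoprotein lipase that PPARs also induce, stood at 4.58, 3.29 and 4.11 CPM and then at 1.17, 1.36 and 0.692 CPM (-1.92 ± 0.25, adjusted p = 0.000923). No libraries overlapped between the times in either gene.

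Of 22 glycolysis genes 8 fell and 1 rose, with a median of -0.14, and 3 were lower with the mitochondrial term. ENO2 went from 122.1 to 139.1 CPM down to 88.3 to 93.5 CPM (-0.54 ± 0.05, adjusted p = 0.000258), and PFKP from 38.7 to 41.8 CPM down to 27.7 to 29.4 CPM (-0.47 ± 0.05, adjusted p = 0.000292). Both encode glycolytic enzymes. Over all genes 12.7% rose and 14% fell. Among 19 genes of gluconeogenesis and glycogen 2 rose and 3 fell, and none of the 5 was called with the mitochondrial term.

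Targets of YAP, SRF and TGF-beta fell as well: 14 of 26, with 3 higher and a median of -0.14, and 10 lower with the mitochondrial term. TAGLN, an actin-binding protein, stood at 130.8, 124.4 and 128.9 CPM and then at 81.7, 83.9 and 79.1 CPM (-0.65 ± 0.04, adjusted p = 2.74e-05). CCN2, a matrix protein and YAP target, went from 269.6 to 286.0 CPM down to 176.6 to 187.8 CPM (-0.62 ± 0.04, adjusted p = 3.34e-05). TGFB1, the ligand, went from 103.9 to 112.6 CPM down to 67.2 to 75.5 CPM (-0.62 ± 0.05, adjusted p = 0.000128).

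Of 20 Wnt targets 11 fell and 1 rose, with a median of -0.13, and 5 were lower with the mitochondrial term. Without 360 min replicate 1 or without replicate 2, 7 were lower. NKD1, a feedback inhibitor of the pathway, stood at 318.8, 303.8 and 308.4 CPM and then at 192.7, 182.7 and 186.5 CPM (-0.73 ± 0.04, adjusted p = 1.81e-05). TBX3, a T-box repressor, fell by 0.46 (SE 0.03, adjusted p = 5.03e-05). CCND1, which encodes cyclin D1, went from 239.2 to 246.9 CPM down to 189.1 to 200.8 CPM (-0.30 ± 0.04, adjusted p = 0.000697). RHBG, an ammonium transporter of pericentral hepatocytes, was the riser (0.35 ± 0.03, adjusted p = 0.000301).

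Among genes outside these programs, CYP24A1, the enzyme that breaks down active vitamin D (chr20:54153449-54173973, minus strand), stood at 30.2, 29.4 and 26.5 CPM at 10 min and at 6.68, 8.19 and 7.08 CPM at 360 min. The groups were far apart (-1.98 ± 0.09, adjusted p = 1.07e-05). At 30 min it averaged 30.1 CPM, as at 10 min. Of the 14 vitamin D and retinoid genes 5 fell and none rose (1 to 3 lower without 10 min replicate 1 or 2 or without 360 min replicate 1 or 2), and with the mitochondrial term CYP24A1 was the 1 still called. PAQR8, a membrane progesterone receptor (chr6:52361421-52407777, plus strand), stood at 75.5, 73.7 and 77.1 CPM and then at 24.2, 25.6 and 26.9 CPM (-1.56 ± 0.05, adjusted p = 1.18e-06). The 9 tested genes of its list held 4 that fell and 1 that rose. PAQR7 fell by 0.38 (SE 0.04, adjusted p = 0.000544), PAQR4 by 0.30 (SE 0.04, adjusted p = 0.00137), and PAQR3 by 0.30 (SE 0.06, adjusted p = 0.0102). PAQR3 was not called with the mitochondrial term (-0.32, adjusted p = 0.0791).

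HMOX1, heme oxygenase, stood at 97.8, 96.6 and 95.9 CPM and then at 53.6, 52.3 and 54.4 CPM (-0.86 ± 0.03, adjusted p = 2.82e-06). It led 31 NRF2 targets, of which 10 fell and 3 rose, with a median of -0.03. The mitochondrial term left 4 lower, and without 10 min replicate 1 or 360 min replicate 1 there were 5. FURIN, a protease that matures hepcidin and many growth factors, went from 67.9 to 76.2 CPM down to 39.3 to 39.9 CPM (-0.86 ± 0.04, adjusted p = 2.02e-05). The iron list that holds it had 6 lower and 3 higher of 15. TFRC, the transferrin receptor, rose by 0.24 ± 0.03 (adjusted p = 0.00103), and SLC40A1, the iron exporter ferroportin, fell by 0.25 (SE 0.03, adjusted p = 0.00129).

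The remaining genes with the largest falls were at low levels at 360 min. SRRM3, a splicing regulator, went from 4.05 to 5.32 CPM down to 1.35 to 2.09 CPM (-1.53 ± 0.19, adjusted p = 0.000787). C6orf223 went from 7.44 to 9.16 CPM down to 2.88 to 3.29 CPM (-1.43 ± 0.12, adjusted p = 0.000128), and NXPH3, a secreted neurexophilin, from 5.39 to 6.06 CPM down to 1.59 to 2.52 CPM (-1.40 ± 0.17, adjusted p = 0.000726). The antisense RNA ZMIZ1-AS1 fell by 1.40 (SE 0.15, adjusted p = 0.00043). AC242842.3 (-1.29 ± 0.32, adjusted p = 0.0187) varied within its groups: 360 min held 5.75, 12.2 and 17.5 CPM. SERHL (-1.40 ± 0.42, adjusted p = 0.0373) held 1.20, 4.33 and 1.49 CPM at 360 min, and its call was lost in 5 of the 6 omissions of a library. Neither was called with the mitochondrial term, where AC242842.3 was at -0.72 (adjusted p = 0.201) and SERHL at -1.98 (adjusted p = 0.0775).

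Cell cycle genes rose. Of 41 genes of the G2 and M phases, which build the spindle and drive division, 31 rose and 2 fell, against 12.7% and 14% of all genes. The median log2 fold change was 0.27. With the mitochondrial term 25 were higher, with the GC trend removed 32, and without 360 min replicate 3 also 32. The list is lower in GC (median 43.2%) than all genes tested (49.0%). MKI67, the proliferation antigen Ki-67 (chr10:128096659-128126385, minus strand), stood at 301.7, 295.8 and 293.3 CPM and then at 438.5, 461.3 and 414.0 CPM (0.56 ± 0.04, adjusted p = 8.34e-05). ASPM, a spindle pole protein, went from 53.8 to 60.7 CPM up to 82.8 to 92.7 CPM (0.64 ± 0.06, adjusted p = 0.000176).

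ANLN, an actin-binding protein of the cleavage furrow, rose by 0.47 ± 0.03 (adjusted p = 8.01e-05), and BUB1B, of the spindle checkpoint, by 0.36 ± 0.03 (adjusted p = 0.000191). The 2 that fell, CDC25B (-0.22 on the log2 scale) and NEK2 (-0.18), are named after their values were seen. Neither was called with the mitochondrial term, where they were at -0.15 (adjusted p = 0.162) and -0.24 (adjusted p = 0.0812). Of 50 genes of DNA replication and G1/S 19 rose and 5 fell, with a median of 0.05, and 11 were higher with the mitochondrial term. The 5 became 2 or 3 without 10 min replicate 2 or 3 or without 360 min replicate 2 or 3. TYMS, thymidylate synthase, stood at 248.3, 254.3 and 247.9 CPM and then at 326.5, 334.9 and 334.9 CPM (0.41 ± 0.03, adjusted p = 8.46e-05). RRM2, a subunit of ribonucleotide reductase, rose by 0.47 ± 0.04 (adjusted p = 0.000155), LIG1, the DNA ligase, by 0.39 ± 0.04 (adjusted p = 0.000401) and MCM7, of the replicative helicase, by 0.30 ± 0.03 (adjusted p = 0.000511).

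Genes of the p53 pathway rose in the same libraries. Of 30 tested 19 rose and 1 fell, with a median of 0.24, and with the mitochondrial term 14 were higher. MDM2, the ligase that degrades p53 and is its target (chr12:68808176-68850686, plus strand), stood at 279.5, 304.7 and 293.2 CPM and then at 407.8, 424.0 and 417.5 CPM (0.51 ± 0.04, adjusted p = 8.59e-05). FAS, the death receptor, went from 25.5 to 27.2 CPM up to 39.4 to 40.7 CPM (0.59 ± 0.04, adjusted p = 6.71e-05). The groups of both genes were separate. FDXR, a mitochondrial reductase, rose by 0.38 ± 0.03 (adjusted p = 0.000191), and DDB2, a sensor of UV damage, by 0.35 ± 0.03 (adjusted p = 0.000303).

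CDKN1A, which encodes the cell cycle inhibitor p21 and is named after its values were seen, was not called: 87.5, 90.3 and 84.9 CPM against 93.0, 93.5 and 110.4 CPM (0.18 ± 0.07, adjusted p = 0.0809). It was called with the mitochondrial term (0.33, adjusted p = 0.00679) and with the GC trend removed (0.25, adjusted p = 0.0222). BBC3, the apoptosis gene PUMA, named likewise, was not called either (0.11 ± 0.08, adjusted p = 0.381). The list's faller, PLK2, named in the same way, was at -0.52 (adjusted p = 0.0158) and was not called with the mitochondrial term (-0.48, adjusted p = 0.149).

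Heat shock genes rose: 14 of 23, with 2 lower and a median of 0.14, and 11 higher and none lower with the mitochondrial term. HSPA1A and HSPA1B, near-identical genes for the inducible chaperone HSP70 that lie in tandem, could share reads, and their split is uncertain. HSPA1A stood at 147.0, 148.3 and 154.5 CPM and then at 283.2, 266.6 and 254.2 CPM (0.84 ± 0.05, adjusted p = 2.14e-05). HSPA1B stood at 154.3, 156.7 and 162.6 CPM and then at 312.8, 291.4 and 271.5 CPM (0.89 ± 0.05, adjusted p = 2.93e-05). Neither gene had libraries that overlapped between the times, and their 30 min means were 124.9 and 134.2 CPM. Their promoters, shown above, hold the searched element at 106 and 105 bases before the start.

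HSPA8, the constitutive HSC70 and one of the most abundant chaperone mRNAs of these cells, went from 1814 to 1820 CPM up to 2449 to 2643 CPM (0.50 ± 0.03, adjusted p = 2.73e-05). HSPH1, its exchange factor, rose by 0.59 ± 0.04 (adjusted p = 2.93e-05). The 2 that fell, HSPB1 (-0.18 on the log2 scale) and HSF1 (-0.15), are named after their values were seen. Neither was called with the mitochondrial term, where they were at -0.21 (adjusted p = 0.0634) and -0.19 (adjusted p = 0.0868), nor with the GC trend removed, at -0.07 (adjusted p = 0.293) and -0.04 (adjusted p = 0.58). Of 24 genes of the ER unfolded protein response 9 rose and 2 fell, with a median of 0.09. DNAJB9, an ER co-chaperone, rose by 0.69 ± 0.07 (adjusted p = 0.000351) and HERPUD1, of ER-associated degradation, by 0.49 ± 0.04 (adjusted p = 0.000128), while ATF6, an ER stress sensor, fell by 0.30 (SE 0.03, adjusted p = 0.000421).

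CLK kinases and SR splicing factors, which phosphorylate and form the splicing machinery, rose in 19 of 29 cases and fell in 2, with a median of 0.18. A fit with the mitochondrial term called 10 higher, and removal of the GC trend 15. Their median GC content was 41.1%, against 49.0% over all genes tested. CLK1, a kinase that phosphorylates SR proteins (chr2:200853009-200864744, minus strand), stood at 25.3, 27.5 and 28.4 CPM and then at 66.4, 70.6 and 65.2 CPM (1.32 ± 0.05, adjusted p = 5.12e-06). It had been at a mean of 30.9 CPM at 30 min.

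SRSF2 went from 215.4, 223.7 and 227.4 CPM to 344.8, 353.2 and 342.0 CPM (0.64 ± 0.03, adjusted p = 2.02e-05), and SRSF3 from 266.5 to 293.5 CPM up to 373.6 to 392.8 CPM (0.44 ± 0.04, adjusted p = 0.000301). CLK1, SRSF2 and SRSF3 are known to make both coding and unproductive isoforms, which a count per gene does not separate. LUC7L, of the U1 particle, rose by 0.44 ± 0.03 (adjusted p = 0.000104). The fallers SRSF5 (-0.15 on the log2 scale) and CIRBP (-0.22) are named after their values were seen. Neither was called with the mitochondrial term, where they were at -0.18 (adjusted p = 0.101) and -0.28 (adjusted p = 0.117). CIRBP was not called with the GC trend removed either (-0.14, adjusted p = 0.147).

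The cholesterol list split evenly, with 10 of 29 higher, 10 lower and a median of -0.03. STARD4, a sterol carrier, stood at 31.5, 34.5 and 32.2 CPM and then at 47.5, 50.1 and 52.6 CPM (0.61 ± 0.05, adjusted p = 0.00015). IDI1, an isomerase of the mevalonate pathway, stood at 69.4, 77.4 and 73.7 CPM and then at 107.2, 111.6 and 103.1 CPM (0.55 ± 0.05, adjusted p = 0.000171). Both genes were higher in every library of 360 min. With the mitochondrial term 10 members of the list were higher and 6 lower.

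The lower members, named after their values were seen, include SREBF2, the factor that drives the pathway, at 210.4, 203.7 and 199.0 CPM and then 162.2, 158.3 and 176.0 CPM (-0.30 ± 0.05, adjusted p = 0.00211). MYLIP, a sterol-induced ubiquitin ligase, went from 9.29 to 9.96 CPM down to 5.82 to 6.04 CPM (-0.68 ± 0.08, adjusted p = 0.000697).

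Fatty acid and triglyceride synthesis was mostly lower: 13 of 21 fell and 4 rose, with a median of -0.15, and 4 were lower and 3 higher with the mitochondrial term. SCD, the desaturase, stood at 2134, 2175 and 2151 CPM and then at 1637, 1590 and 1725 CPM (-0.38 ± 0.03, adjusted p = 0.000107). ACSS2, which makes acetyl-CoA from acetate, went from 76.4 to 77.9 CPM down to 47.4 to 50.6 CPM (-0.64 ± 0.04, adjusted p = 2.13e-05). AGPAT2 fell by 0.39 (SE 0.03, adjusted p = 7.48e-05) and DGAT2 by 0.41 (SE 0.03, adjusted p = 0.000128), both enzymes of triglyceride assembly. In the list of fatty acid oxidation 5 of 20 fell and 2 rose. CPT1A, the gate of mitochondrial import, fell by 0.36 (SE 0.04, adjusted p = 0.000386), and EHHADH, of the peroxisome, rose by 0.42 ± 0.05 (adjusted p = 0.000579).

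Among hepatocyte functions, 7 of 25 transcription factors (28%) rose and 6 (24%) fell, against 12.7% and 14% of all genes. CEBPA, a factor of the mature liver, went from 165.2 to 185.0 CPM down to 122.6 to 129.5 CPM (-0.45 ± 0.05, adjusted p = 0.000398), and FOXA2, a pioneer factor, from 30.7 to 31.8 CPM up to 37.4 to 39.1 CPM (0.29 ± 0.04, adjusted p = 0.00128). Of 49 secreted plasma proteins 12 (24.5%) fell and 7 (14.3%) rose. C3, of complement, fell by 0.20 (SE 0.03, adjusted p = 0.00113), and FGB, a fibrinogen chain, rose by 0.29 ± 0.04 (adjusted p = 0.002). Of 14 bile acid genes 4 (28.6%) rose and 1 (7.14%) fell. NR1H4, the bile acid receptor FXR, rose from 7.23 to 8.56 CPM to 11.5 to 12.3 CPM (0.60 ± 0.09, adjusted p = 0.00163), and KLB, the co-receptor of FGF19, by 0.47 ± 0.05 (adjusted p = 0.000288).

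Of 21 NF-kB response genes 9 rose and 1 fell, with a median of 0.07, and 3 were higher with the mitochondrial term. BIRC3, an inhibitor of apoptosis, stood at 5.56, 5.57 and 6.07 CPM and then at 10.9, 12.3 and 10.6 CPM (0.98 ± 0.09, adjusted p = 0.000261). CCL20, a chemokine, went from 84.6 to 103.1 CPM up to 138.9 to 147.5 CPM (0.65 ± 0.07, adjusted p = 0.000509). TNFAIP3, the feedback inhibitor A20, rose by 0.36 ± 0.04 (adjusted p = 0.000764). The faller was TNFAIP2 (-0.94 ± 0.15, adjusted p = 0.0023). Of 19 interferon-stimulated genes 2 (10.5%) rose and 4 (21.1%) fell, against 12.7% and 14% of all genes.

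Among 30 ATF4 and amino acid response genes 6 (20%) rose and 4 (13.3%) fell, against 12.7% and 14% of all genes. ASNS, asparagine synthetase, stood at 91.2, 87.0 and 81.9 CPM and then at 56.0, 54.6 and 36.5 CPM (-0.83 ± 0.14, adjusted p = 0.00329), with 360 min replicate 3 the lowest. ATF5 rose by 0.53 ± 0.07 (adjusted p = 0.000852). Of 21 clock genes 6 rose and 4 fell, and 1 and 2 with the mitochondrial term; 3 rose without any of 5 libraries (10 min replicates 1 and 3, each of 360 min). NR1D2, a clock repressor, rose from 16.2 to 16.9 CPM to 21.0 to 21.7 CPM (0.37 ± 0.05, adjusted p = 0.0017). In the zinc list 3 of 14 rose and 4 fell: SLC30A7, a Golgi zinc carrier, rose by 0.38 ± 0.05 (adjusted p = 0.000787), and SLC30A1, the zinc exporter, fell by 0.33 (SE 0.07, adjusted p = 0.00838). Of 33 autophagy and lysosome genes 5 (15.2%) rose and 6 (18.2%) fell, near the shares of all genes. Without any 1 library but 10 min replicate 2, 1 to 3 of them rose. Of 16 tubulin and cilium genes 3 (18.8%) rose and 1 (6.25%) fell.

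Of the housekeeping groups, the ribosomal protein and respiratory chain genes moved little. Of 78 cytosolic ribosomal protein genes 4 fell and 1 rose, with a median of -0.06, and none was called with the mitochondrial term. RPS26, the riser, varied at 10 min (98.97, 124.6 and 136.8 CPM) and stood at 155.4, 157.8 and 158.6 CPM at 360 min (0.39 ± 0.10, adjusted p = 0.0196). Of 53 nuclear-encoded respiratory chain subunits 2 rose and 1 fell. Of 32 ribosome biogenesis genes 7 (21.9%) rose and 1, MYC, fell, against 12.7% and 14% of all genes. NCL, nucleolin, went from 1409 to 1428 CPM up to 1592 to 1747 CPM (0.25 ± 0.03, adjusted p = 0.00129). Of 19 snoRNA hosts and nuclear RNAs 6 (31.6%) rose and 2 (10.5%) fell. KCNQ1OT1, an imprinted nuclear RNA, rose from 18.3 to 21.98 CPM to 30.5 to 35.6 CPM (0.74 ± 0.08, adjusted p = 0.000461), and SNHG12, which hosts snoRNAs, by 0.59 ± 0.06 (adjusted p = 0.000325).

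**Figure D4:**
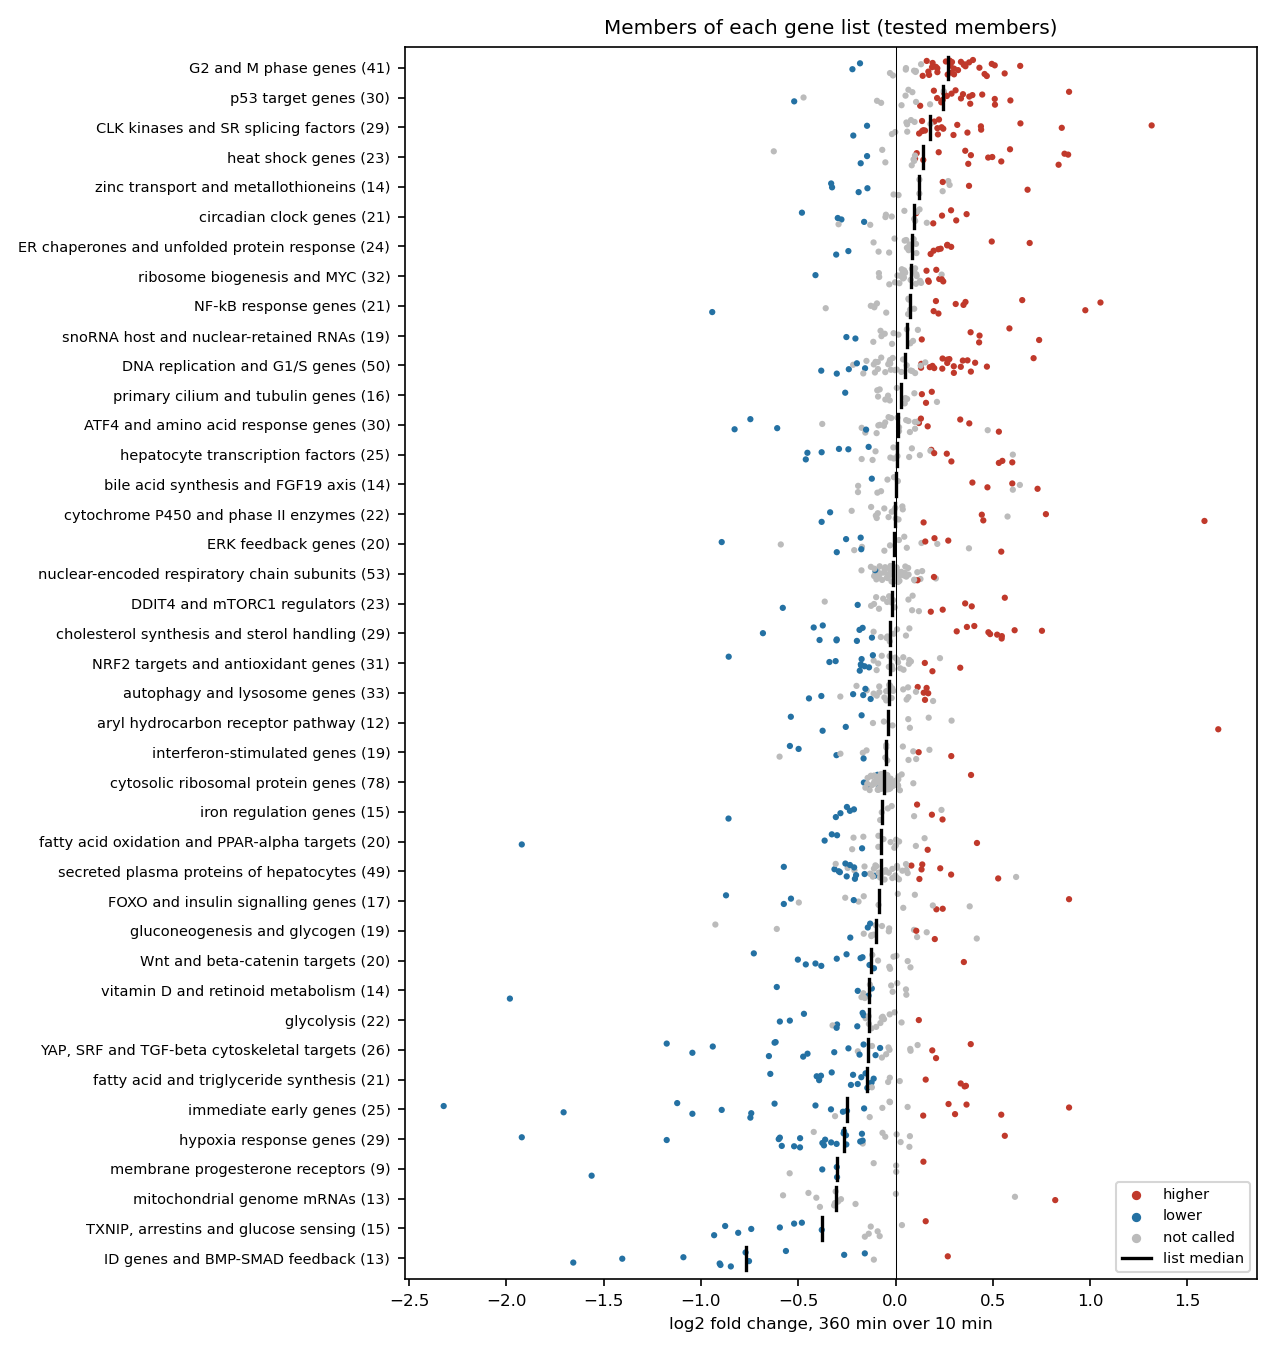
Log2 fold change at 360 min over 10 min (horizontal axis) of every tested member of the 41 gene lists, with the number tested in brackets. Red points were called higher, blue lower and grey not called, and the black line is the list's median. The lists run from a median of -0.77 (ID and BMP-SMAD genes) to 0.27 (G2 and M phase genes).

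Further groups were counted with the GC trend removed. Immediate early genes then had 9 lower and 6 higher, and the list of TXNIP and glucose sensors 8 and 1. Glycolysis had 9 lower and 1 higher, the YAP, SRF and TGF-beta targets 15 and 4, and the Wnt targets 9 and 1. The p53 targets had 18 higher and 1 lower, the heat shock genes 14 and 0, and the NF-kB genes 10 and 2. Fatty acid and triglyceride synthesis had 11 lower and 4 higher, and the NRF2 targets 6 and 3.

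The mRNAs of the mitochondrial genome differed between the libraries of 360 min. MT-ND1, of complex I, stood at 1386, 1535 and 1352 CPM at 10 min and at 774.4, 717.1 and 1370 CPM at 360 min, where replicate 3 lay within the 10 min range. The log2 fold change was -0.58 ± 0.21 (adjusted p = 0.0756). Over the 13 tested the median was -0.31, with 1 higher and none lower. Without 360 min replicate 3 the median was -0.54, with 11 lower. MT-CO1 (-0.31 ± 0.14, adjusted p = 0.144) and MT-CO3 (-0.28 ± 0.13, adjusted p = 0.153), subunits of complex IV, had the same split. The riser MT-ND6, the complex I subunit encoded on the light strand, stood at 96.5, 78.0 and 136.0 CPM and then at 222.8, 148.6 and 176.6 CPM (0.82 ± 0.20, adjusted p = 0.0172). MT-ND6 was not called with the mitochondrial term (0.77, adjusted p = 0.124).

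**Figure D5:**
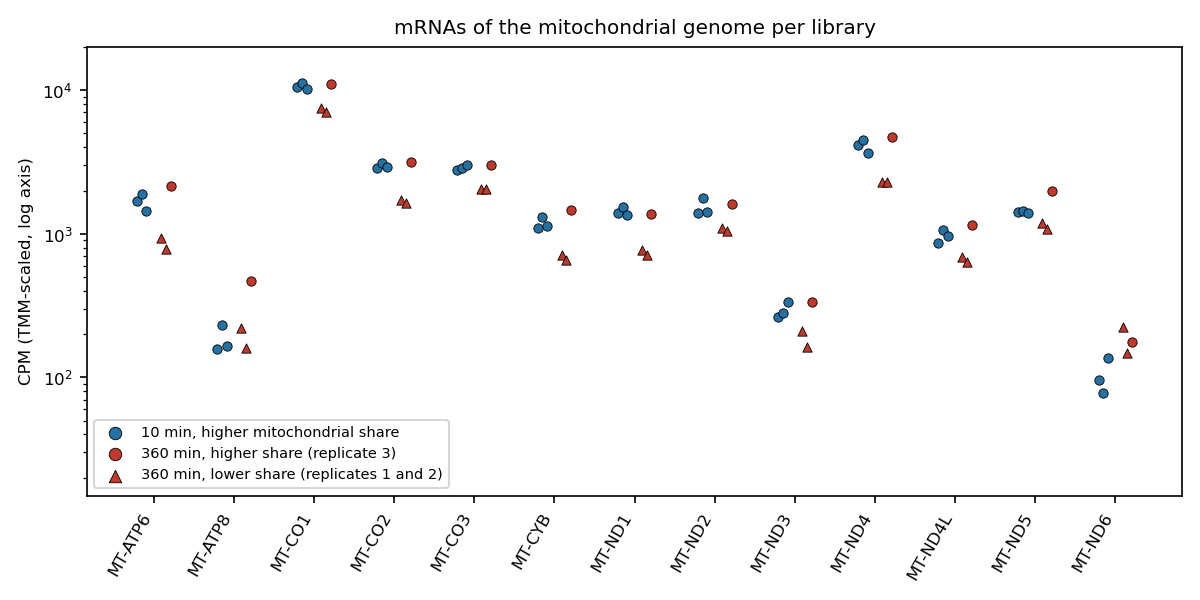
TMM-scaled CPM (log axis) of the 13 mRNAs of the mitochondrial genome in each library. Blue points are 10 min and red points 360 min; circles have the higher mitochondrial share and triangles the lower. For MT-ND1 the red circle, 360 min replicate 3 at 1370 CPM, lies among the blue points, and the triangles lie at 774.4 and 717.1 CPM; MT-ND6 is the mRNA called higher.

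Some of the largest rises by fold belonged to gene models that overlap others. ADORA2A, an adenosine receptor (chr22:24417879-24442360, plus strand), stood at 0.848, 0.593 and 0.514 CPM and then at 3.76, 9.40 and 2.41 CPM (2.96 ± 0.53, adjusted p = 0.00422). The readthrough model SPECC1L-ADORA2A, which contains it, stood at 20.04, 20.3 and 21.98 CPM and then at 7.37, 0 and 9.51 CPM, and was not called (adjusted p = 0.102). The 360 min library with the most ADORA2A was the one with none of the readthrough model. Added together, both models were lower in every library of 360 min than in any of 10 min. A rise of the receptor's mRNA therefore cannot be read from the ADORA2A model alone. The antisense gene ADORA2A-AS1 also overlaps ADORA2A. At 30 min ADORA2A averaged 12.1 CPM.

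AC020656.2 (chr12:69326574-69331882, minus strand) had no such overlap in GENCODE and rose from 9.12, 9.09 and 10.96 CPM to 31.2, 29.9 and 31.2 CPM (1.66 ± 0.08, adjusted p = 1.43e-05), with 17.3 CPM at 30 min. CAVIN2, a caveolar coat protein, had 1 of the 3 largest F statistics of a rise, from 29.2, 29.8 and 31.7 CPM to 52.2, 51.1 and 52.4 CPM (0.78 ± 0.04, adjusted p = 2.02e-05). PRCD, a small photoreceptor disc protein, rose by 1.58 ± 0.32 (adjusted p = 0.00775), and its 360 min libraries ranged from 1.74 to 4.37 CPM. PRCD overlaps AC015802.3 and AC015802.5 on the same strand and CYGB on the other. AC105339.2, which overlaps the RNA genes SNHG21 and SCARNA15 on the same strand, rose by 1.72 ± 0.24 (adjusted p = 0.00122), and AL117339.4, a symbol that 2 gene identifiers share, by 1.56 ± 0.17 (adjusted p = 0.000461). The AL117339.4 model overlaps ZNF37A, HSD17B7P2 and other genes on the same strand.

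Less stable were AP000944.5 (3.17 ± 0.97, adjusted p = 0.0422), which overlaps POLA2 and was at 0 in 2 of the 10 min libraries, and POC1B-GALNT4 (1.76 ± 0.52, adjusted p = 0.0372), a readthrough model. Each lost its call in 4 of the 6 omissions of a library. MIR3142HG, which hosts MIR3142 and MIR146A, was at 0, 1.42 and 1.09 CPM and then at 3.62, 4.86 and 3.38 CPM (2.22 ± 0.64, adjusted p = 0.0324), and lost its call in 3.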

How the data were processed

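Polyadenylated RNA was sequenced, and the authors deposited whole-number read counts per gene for all 12 libraries. HISAT2, DESeq2 and the build GRCh38 are named in the submitters' processing notes. Their versions, the counting program and whether strand was used are not given in the sources. Of 60612 genes 58394 (96.34%) were found in GENCODE 29, which gave positions, lengths and GC content.

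The counts of the 6 libraries were filtered by group (filterByExpr), scaled by TMM and tested with edgeR 4.0.16 in R 4.3.3 (quasi-likelihood F test, two-sided, 4 residual degrees of freedom, biological coefficient of variation 9.17%), with Benjamini-Hochberg adjustment over 16216 genes. A log2 fold change is 360 min over 10 min, its SE is its size over the root of the F statistic, and CPM are TMM-scaled. P-values measure the spread between replicates labelled biological; their separate culture is not described further. The members and the 41 gene lists were chosen with earlier results of these data known, so a list's direction is no independent evidence, and lists are described by counts and medians.

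Genes were named by rule. The 12 largest changes each way and the 3 largest F statistics each way were taken among called genes. Those genes also had to reach 1 in mean log2 CPM and to have groups that did not overlap. In each list the 4 tested members with the smallest p could be named, whether called or not. Members of lists under 10 could all be named. Other genes are marked in the text, and some genes that met the rule are not reported here.

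On simulated data for this comparison (15978 to 16013 genes a run, 3 runs of 200 changed genes, dispersions per gene) recovery was 119 of 201 at 1.3-fold, 146 of 201 at 1.5-fold and 189 of 198 at 2-fold, with 10% false calls. With dispersions on the fitted trend (15993 to 16018 genes) recovery was 121 of 201, 151 of 201 and 190 of 198, and false calls were 3.8%. Each run changed 200 genes, whereas 4323 were called in the data. No simulated fold was below 1.3, and the median called change, 0.28 on the log2 scale, was smaller than that. Recovery of changes that small, or with that many genes changed, was not tested.

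Alternatives were DESeq2 1.42.0, limma voom (3.58.1), other scalings, filters, thresholds and sets of libraries, the replicate block, a term for the mitochondrial share, thinning, a GC trend and omission of each library. Leaving out mitochondrial genes, the heat shock motif and the gene groups of the closing section were added after seeing the data.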

Additional observations from a re-analysis of the deposited data

How the results depend on the processing

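The edgeR test called 4323 genes. A fit with the mitochondrial side as a term called 1637 (757 higher, 880 lower), 1577 of them among the 4323. A fit in which 360 min replicate 3 alone stood for 360 min called 1042 (439 and 603), 992 of them among the 4323, and assumes that this lone library varies like the 10 min group. Both estimate the difference between the times from that library alone of its group. At an adjusted p under 0.01 the count was 2144 (954 and 1190). Omission of each library gave 2841 to 3737 calls, 1314 to 1839 higher and 1485 to 2009 lower. DESeq2 called 4092, limma voom 4334, total-count scaling 4331 (2363 and 1968), no filter 3602, the fit without mitochondrial genes 4330 and removal of the GC trend 4210. All 4323 kept their sign in every alternative that tested them but removal of the GC trend, where 4314 did. MT-CO1 turned to 0.06 on the log2 scale with the mitochondrial term (0.0607) and with the high side alone (0.0614), and MT-CO3 to 0.0658 and 0.0666, but these mRNAs themselves define the side.

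Samples with the same replicate number did not deviate together (r = 0.114, -0.02 and -0.067), so the numbers are not taken to pair them. With the replicate block 3312 genes were called (1542 higher, 1770 lower). Of the list medians of at least 0.1 in size, those of the mitochondrial mRNAs and of the zinc list (-0.01) turned sign with the mitochondrial term and with the high side alone, and no others did in these alternatives. Small changes in genes under a mean log2 CPM of about 1 are below what the depth can show.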

Other observations

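Gene groups defined after the data were seen are given here as values. Of 436 tested genes named ZNF, most of them zinc finger transcription factors, 82 (18.8%) rose and 19 (4.36%) fell, with a median log2 fold change of 0.12, against 12.7% and 14% of all genes. ZNF440 stood at 4.14, 5.30 and 4.72 CPM at 10 min and at 9.27, 9.43 and 8.33 CPM at 360 min (0.93 ± 0.11, adjusted p = 0.000754), and its groups did not overlap. These genes are low in GC, with a median of 43.5%, and with the GC trend removed 76 were higher and 19 lower, with a median of 0.10. With the mitochondrial term 27 were higher and 5 lower.

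Of 260 transporters named SLC, 61 (23.5%) fell and 33 (12.7%) rose. SLC29A3, a lysosomal nucleoside carrier, stood at 53.1, 52.6 and 52.9 CPM and then at 24.3, 25.9 and 27.2 CPM (-1.04 ± 0.05, adjusted p = 1.07e-05). SLC44A2, a choline transporter, went from 4.82 to 5.49 CPM down to 2.36 to 2.56 CPM (-1.05 ± 0.12, adjusted p = 0.000484). With the GC trend removed 48 transporters were lower and 40 higher. Of 12 genes named KLF, 6 fell and 1, KLF3, rose, with a median of -0.31. KLF3 (0.12, adjusted p = 0.0323) lost its call in 5 of the 6 omissions of a library, with the mitochondrial term (adjusted p = 0.0536), with the replicate block (adjusted p = 0.0663) and with the GC trend removed (adjusted p = 0.349). KLF11, a repressor induced by TGF-beta, stood at 14.1, 13.1 and 13.1 CPM and then at 7.42, 7.13 and 6.57 CPM (-0.93 ± 0.08, adjusted p = 0.000168), and KLF13 fell by 0.32 (SE 0.03, adjusted p = 0.000446). Of 2169 long non-coding genes 147 (6.78%) rose and 87 (4.01%) fell, and of 1077 pseudogenes 67 (6.22%) rose and 26 (2.41%) fell. All of these shares are below the 12.7% and 14% of all genes. Those backgrounds are not matched for level or length. Of the 3244 genes lowest in mean log2 CPM, 3.02% were called higher and 4.53% lower. Of the 3210 genes with the shortest transcripts, 5.79% were called higher and 5.51% lower. Whether the low shares belong to these gene types, apart from level and length, was not tested. The pseudogenes' median log2 fold change was 0.08, and -0.01 with the mitochondrial term.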
